A study of Mus musculus with 9 samples.

Results

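Retinoic acid synthesis, binding and reception were described through 9 genes, Aldh1a1, Aldh1a2, Aldh1a3, Crabp1, Crabp2, Rara, Rarb, Rxra and Cyp26b1, of the 27095 loci in the table. They were chosen by name because EtOH competes with retinol for dehydrogenases, and the rule uses no measured value. Transcript levels were measured by RNA-seq in 9 wild-type C57BL/6 fetuses (C57BL/6J in the study's methods) on gestational day 17 (GD17). For the 3 Control fetuses, the dam received lactated Ringer's solution on gestational day 7. For the 3 Unaffected and 3 Affected fetuses, the dam received an intraperitoneal injection of 2.9 g/kg EtOH on that day, and these groups differed in whether ocular, cortical or craniofacial defects were scored. No litter is named for any fetus, and grouping by defects means that the EtOH-exposed groups were not assigned at random.

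Retinol enters cells with the help of carrier proteins, is oxidised to retinaldehyde by retinol dehydrogenases, and is oxidised again to retinoic acid by the Aldh1a enzymes. Crabp proteins hold retinoic acid in the cytoplasm, heterodimers of a retinoic acid receptor and a retinoid X receptor carry its signal to DNA, and Cyp26 enzymes degrade it. In the embryonic forebrain, Aldh1a2 is known as an enzyme of the meninges and Aldh1a3 as one of the lateral ganglionic eminence.

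Each group has 1 deposited FPKM value per gene, which the authors' software took over 3 animals. FPKM is scaled to transcript length, so levels can be set beside each other between genes. Because no value of a single animal was available, no difference below was tested here against the spread among animals. Differences are on the log2(FPKM + 0.1) scale, and the 95% interval beside one covers counting error only. It is computed as if the deepest library of a group were the only one. Counting over all 3 animals would give a narrower interval. All 13 markers of cortical projection neurons had a mean FPKM above 1, and 10 of 11 markers of midbrain and hindbrain were below that level, with Hoxa3, Hoxb2 and Hoxb3 listed at 0 in all groups. The exception, Th, stood at 1.73 FPKM for Control, 1.67 for Unaffected and 0.954 for Affected, a difference of -0.80 in Affected against Control and -0.75 in Affected against Unaffected. The tissue is called fetal brain in the labels and cortex in the study's methods.

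The groups also differed in sex-linked transcripts, although the labels give no sex. Xist, which is transcribed from the inactive X chromosome of females, stood at 9.24 FPKM for Control, 0.0210 for Unaffected and 10.3 for Affected. The Y-linked Ddx3y stood at 2.66, 8.40 and 0.00906 FPKM in the same order. Unaffected was thus nearly without Xist, Affected was nearly without Y-linked RNA, and Control held both. Sex and the presence of defects cannot be told apart in Affected against Unaffected, and sex also differs in makeup in both comparisons with Control.

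A promoter is shown for 2 members because they are the receptor and the degrading enzyme that retinoic acid itself is known to induce. The retinoic acid receptor binds paired hexamers in the same orientation, and the Rarb promoter holds the textbook case with a spacer of 5 bases. The RefSeq sequences (GRCm38.p6, from 250 bases before to 50 after the transcription start, each 5′ to 3′ on the minus strand) are at chr14:16575427-16575726 for Rarb and chr6:84593761-84594060 for Cyp26b1. Capitals mark both hexamers of the repeat.
Rarb: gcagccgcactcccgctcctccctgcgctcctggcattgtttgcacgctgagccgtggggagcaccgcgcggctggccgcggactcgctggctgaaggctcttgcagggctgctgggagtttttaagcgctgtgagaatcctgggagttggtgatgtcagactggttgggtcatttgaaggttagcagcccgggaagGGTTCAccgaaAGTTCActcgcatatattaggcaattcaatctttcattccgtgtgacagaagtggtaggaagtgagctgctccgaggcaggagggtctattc
Cyp26b1: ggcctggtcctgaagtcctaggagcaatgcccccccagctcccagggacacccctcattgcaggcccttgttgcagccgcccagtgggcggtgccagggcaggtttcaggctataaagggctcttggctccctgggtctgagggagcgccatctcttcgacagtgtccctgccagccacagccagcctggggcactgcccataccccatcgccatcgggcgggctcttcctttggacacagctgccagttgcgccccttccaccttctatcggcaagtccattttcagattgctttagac
The hexamers searched were AGGTCA as the classical form, GGGTCA as one variant of it, AGTTCA as another variant and GGTTCA as the last. Both strands were searched, so overlapping matches were possible. At least 1 of them was present in 43.7% of the 32851 mouse promoters of this length. A direct repeat of them with a spacer of 5 bases was present in 32 promoters (0.0974%), with a spacer of 2 bases in 88 (0.268%) and with a spacer of 1 base in 73 (0.222%). RefSeq promoters were matched for 7 of the 9 members, 12 promoters in all. Among these, Rarb had the repeat with the spacer of 5 bases, at -53 to -37 from the start site (chr14:16575513-16575529), and no member promoter had either of the shorter spacings. The Cyp26b1 promoter held 0 of these hexamers. A match is a description of the letters in this window.

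Of the 9 members, 8 had a mean FPKM of at least 1 over the groups, and Aldh1a1 did not. In Control the order of levels was Crabp1, Crabp2, Rarb, Aldh1a2, Rara, Cyp26b1, Rxra, Aldh1a3 and Aldh1a1, and Unaffected had the same order. In Affected, Rara and Cyp26b1 stood above Aldh1a2, at 6.49 and 5.64 FPKM against 5.58. Neighbours in this order cannot be separated against animal spread, and Cyp26b1 and Aldh1a2 in Affected were nearly equal.

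**Figure D1:**
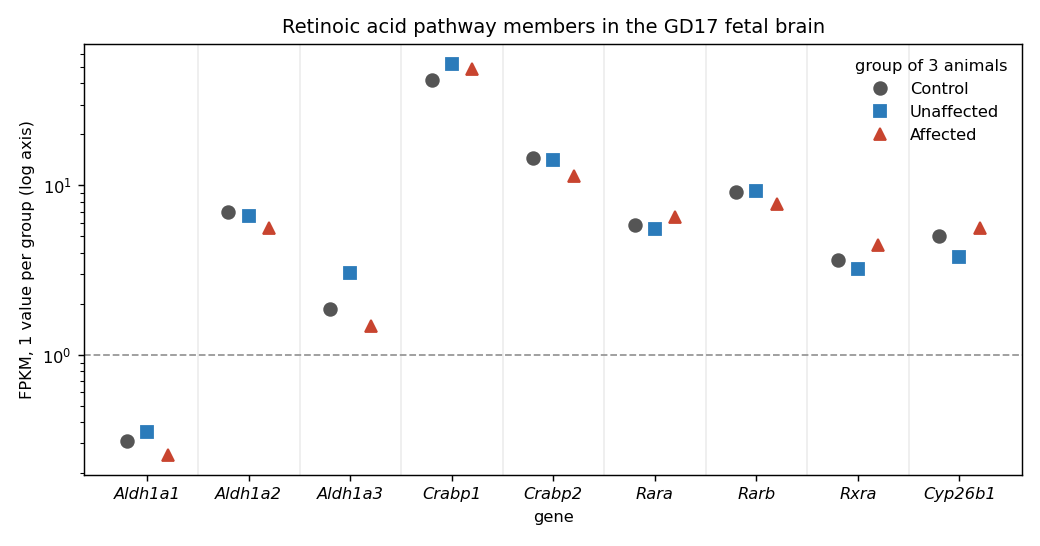
FPKM of the 9 members (log axis) in Control (grey circles), Unaffected (blue squares) and Affected (red triangles), 1 deposited value per group of 3 animals without error bars. The dashed line marks an FPKM of 1, and Aldh1a3 has the widest spread among the groups, from 1.48 in Affected to 3.06 in Unaffected.

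Among the enzymes of synthesis, Aldh1a3 varied most. This retinaldehyde dehydrogenase (chr7:66390893-66427477, minus strand, mm10) stood at 1.86 FPKM for Control, 3.06 for Unaffected and 1.48 for Affected. Unaffected was the high group, and Control and Affected were close together. Affected was lower than Unaffected by 1.00 on the log2 scale (interval -1.44 to -0.56), a 2-fold difference. Unaffected was higher than Control by 0.68 (0.22 to 1.15), and Affected against Control was -0.32 (-0.82 to 0.19), an interval that includes 0. Of the 1000 loci nearest in mean FPKM, 5.3% differed at least as far in Affected against Unaffected and 7.4% in Unaffected against Control. Estimated fragments were few, about 58.1 for Control, 104 for Unaffected and 66.6 for Affected. They are counted as if the deepest library of a group were the only one.

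Aldh1a2, the main retinaldehyde dehydrogenase of the early embryo (chr9:71215789-71296243, plus strand), stood at 6.98 FPKM for Control, 6.59 for Unaffected and 5.58 for Affected. Affected was the low group. Its difference from Control was -0.32 (-0.52 to -0.12) and from Unaffected -0.24 (-0.43 to -0.04), while Unaffected against Control was -0.08 (-0.29 to 0.12). As many as 18.9% of the loci nearest in level differed as far from Control in Affected, so this is a difference of ordinary size among these loci.

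Aldh1a1 (chr19:20601982-20643462, plus strand) was nearly silent, at 0.311 FPKM for Control, 0.351 for Unaffected and 0.256 for Affected. Counting intervals of all its differences include 0, with estimates of 15.6, 19.1 and 18.5 fragments for the deepest library of each group. The table's locus begins inside the annotated gene, which starts at position 20492715. The summed FPKM of the 3 enzymes was 9.16 for Control, 9.99 for Unaffected and 7.31 for Affected. Aldh1a2 made up 76.2% of that sum for Control, 65.9% for Unaffected and 76.3% for Affected, and the share of Aldh1a3 was 20.4%, 30.6% and 20.2%. The enzymes' makeup was thus alike in Control and Affected, and Unaffected stood apart through Aldh1a3.

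The binding proteins did not move together. Crabp1 (chr9:54764808-54773109, plus strand), the most abundant member, stood at 41.6 FPKM for Control, 52.4 for Unaffected and 48.8 for Affected. Both EtOH-exposed groups were above Control, by 0.33 (0.20 to 0.46) in Unaffected and 0.23 (0.10 to 0.35) in Affected. Of the loci nearest in level, 3.9% differed as far in Unaffected against Control and 34.1% in Affected against Control. Affected against Unaffected was -0.10 (-0.22 to 0.01).

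Crabp2 (chr3:87948693-87953372, plus strand), which hands retinoic acid to its receptor in the nucleus, stood at 14.4 FPKM for Control, 14.2 for Unaffected and 11.4 for Affected. Affected was low, by -0.34 (-0.55 to -0.13) against Control and -0.32 (-0.53 to -0.11) against Unaffected, and Unaffected against Control was -0.02 (-0.24 to 0.20). Differences at least as large as those of Affected were found for 14.5% and 33.9% of the loci nearest in level. The ratio of Crabp1 to Crabp2 was 2.89 for Control, 3.69 for Unaffected and 4.29 for Affected.

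The receptors differed by less than 1.5-fold in every comparison. Rara (chr11:98927823-98974942, plus strand), the broadly expressed retinoic acid receptor, stood at 5.83 FPKM for Control, 5.57 for Unaffected and 6.49 for Affected. Its largest difference was 0.22 (0.05 to 0.39) in Affected against Unaffected, and 53.0% of the loci nearest in level differed as far. Rxra (chr2:27677201-27763319, plus strand), the shared heterodimer partner, stood at 3.65, 3.21 and 4.42 FPKM in the same order. It was highest in Affected, by 0.45 (0.18 to 0.72) against Unaffected and 0.27 (0.00 to 0.54) against Control. At least as far a difference was found for 21.7% and 33.9% of the loci nearest in level.

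Rarb, the receptor whose promoter carries the repeat printed above, stood at 9.20 FPKM for Control, 9.28 for Unaffected and 7.74 for Affected. Affected was the low group, by -0.25 (-0.44 to -0.05) against Control and -0.26 (-0.45 to -0.07) against Unaffected, and Unaffected against Control was 0.01 (-0.19 to 0.21). Differences at least as large as those of Affected were found for 31.7% and 46.2% of the loci nearest in level. The Rarb value is uncertain. The table's locus is chr14:16365206-16819156 on the minus strand, whereas the lower end of the annotated gene is at position 16430839, and 34.1% of Rarb exon bases (1793 of 5265) overlap exons of Top2b, a topoisomerase gene on the opposite strand. The libraries do not mark strand, so reads from the overlap cannot be told apart. Top2b was far more abundant, at 79.5 FPKM for Control, 73.8 for Unaffected and 96.0 for Affected, and it was highest where Rarb was lowest. Across the genome, 31 genes had the repeat with the spacer of 5 bases, and 5 of them had a mean FPKM of at least 1, too few to describe as a group.

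Cyp26b1, the enzyme that degrades retinoic acid in the forebrain (chr6:84571414-84593908, minus strand), stood at 5.01 FPKM for Control, 3.78 for Unaffected and 5.64 for Affected. Unaffected was the low group, the reverse of Aldh1a3. Affected was higher than Unaffected by 0.56 (0.39 to 0.73), a ratio of 1.48 just under 1.5-fold, and Unaffected against Control was -0.40 (-0.58 to -0.21). Of the loci nearest in level, 12.1% and 8.2% differed as far in these comparisons. The summed Aldh1a enzymes stood to Cyp26b1 as 1.83 for Control, 2.64 for Unaffected and 1.30 for Affected, a ratio of transcript levels and not of enzyme activity.

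**Figure D2:**
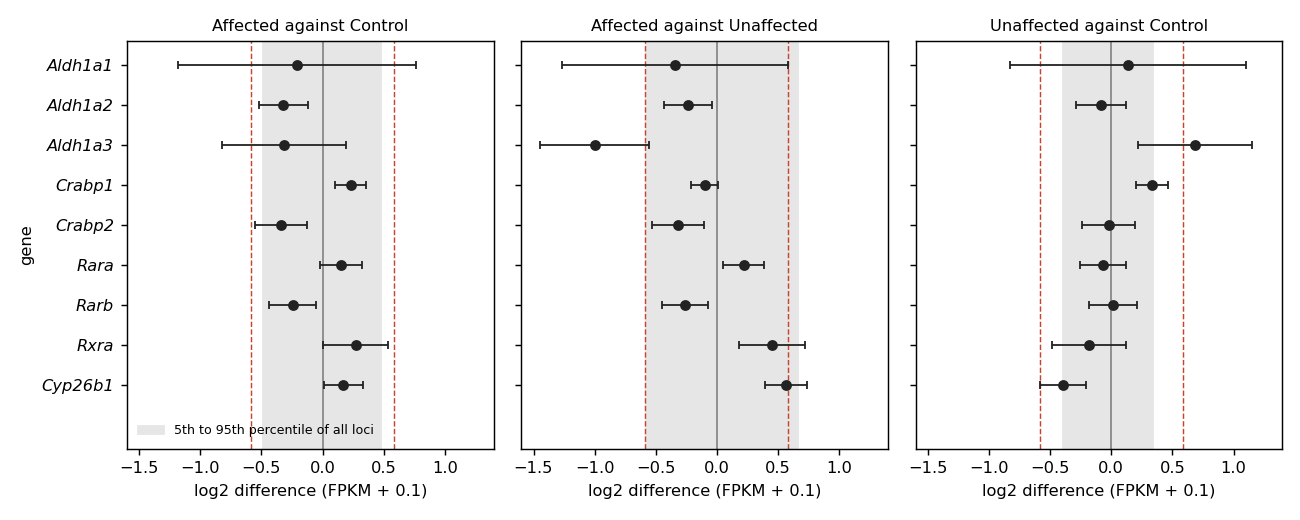
Differences in log2(FPKM + 0.1) of the 9 members in the 3 comparisons, with bars for 95% counting intervals that do not include the spread among animals. Grey bands span the 5th to 95th percentile of the 15548 loci with a mean FPKM of at least 1, red dashed lines mark 1.5-fold, and Aldh1a3 is past that line in Affected against Unaffected and in Unaffected against Control.

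In Affected against Control, 0 of the 8 members past the filter on level differed by 1.5-fold, while 6.43% of all 15548 loci past it did. In Affected against Unaffected the count was 1 (Aldh1a3) against 11.8% of all loci, and in Unaffected against Control it was 1 (Aldh1a3) against 5.54%. At a ratio of at least 5 to 4 in either direction, 1, 3 and 3 members were past the limit in those comparisons, against 23.4%, 38.4% and 12.3% of all loci. At 2-fold, 0, 1 and 0 members were, against 2.27%, 2.93% and 2.23%. At 1.5-fold the members' counts are near these shares of all loci, and with 8 members a share moves in large steps. The members' median difference was -0.05 in Affected against Control, -0.17 in Affected against Unaffected and -0.04 in Unaffected against Control, beside 0.02, 0.01 and 0.01 over all loci. These comparisons share groups and are not independent of each other.

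Differences between groups went with transcript length across all loci. Over 12559 loci, which are not independent replicates, Spearman's rho between the median transcript length of a gene and its difference was 0.30 in Affected against Control, 0.35 in Affected against Unaffected and -0.30 in Unaffected against Control. With the longest transcript of a gene, a measure added after seeing the data, rho was 0.51, 0.58 and -0.48. Long transcripts were thus mostly higher in Affected, and short ones lower. The running median of loci of like length was subtracted by either measure.

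Aldh1a3 in Affected against Unaffected stood at -0.87 with the median length and was 2-fold lower with the longest transcript. Cyp26b1 in that comparison stood at 0.33 and 0.46, and in Affected against Control it went from 0.17 to 0.00 and 0.08. The members with short transcripts depended most on the measure. Crabp2, with a longest transcript of 931 nt, went in Affected against Unaffected from -0.32 to -0.21 with the median length and to 0.11 with the longest, and in Affected against Control from -0.34 to -0.30 and -0.05. Crabp1, of 802 nt, went in Affected against Unaffected from -0.10 to -0.01 and 0.34, and in Affected against Control from 0.23 to 0.26 and 0.54. With the median length and the longest transcript subtracted, Rarb in Affected against Unaffected went from -0.26 to -0.12 and -0.24, and Aldh1a2 from -0.24 to -0.30 and -0.10. Rxra in Affected against Control went from 0.27 to 0.26 and 0.15, and Crabp1 in Unaffected against Control from 0.33 to 0.28 and 0.20. The part of length in these differences was not tested.

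**Figure D3:**
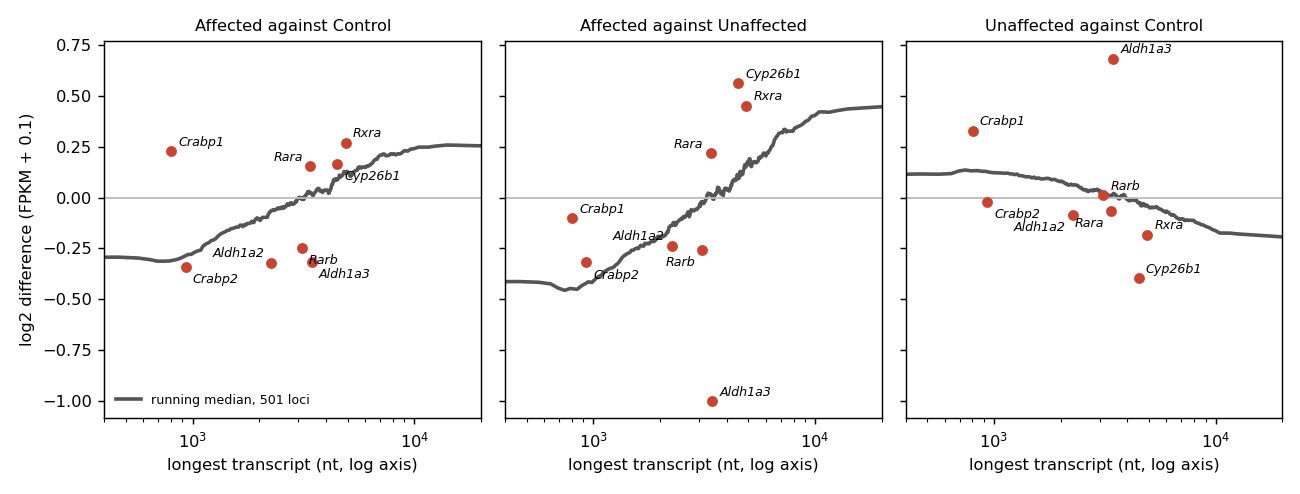
Difference in log2(FPKM + 0.1) against the longest annotated transcript (nt, log axis), the measure added after seeing the data, in the 3 comparisons, with the 8 members past the filter on level as red points and the running median of the loci as a grey line. The line climbs with length in both comparisons of Affected, Crabp2 lies near it, and Aldh1a3 lies far below it in Affected against Unaffected.

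Upstream of the members, 5 of 12 genes of retinoid uptake, storage and carriage had a mean FPKM of at least 1. The list's median differences were 0.15 in Affected against Control, -0.26 in Affected against Unaffected and 0.10 in Unaffected against Control, and the second of these was -0.16 with the trend of the median length subtracted and 0.09 with that of the longest transcript.

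The retinol and retinaldehyde oxidoreductases were mostly slightly lower in Affected. Of 17 genes, 8 had a mean FPKM of at least 1, and 0 of them differed by 1.5-fold in any comparison. In Affected against Unaffected 8 of 8 were lower, with a median of -0.17 (-0.14 with the trend of the median length subtracted, -0.09 with that of the longest transcript), and in Affected against Control 7 of 8 were lower, with a median of -0.10. Over all loci, 48.7% and 47.0% were lower in these comparisons. In Unaffected against Control 5 of 8 were higher, with a median of 0.04. Among the alcohol dehydrogenases, Adh5 was abundant, at 118 FPKM for Control, 128 for Unaffected and 113 for Affected. Adh4 was listed at 0 in all groups, Adh1 was at most at 0.125 FPKM and Adh7 at most at 0.120. Of the other degrading enzymes, Cyp26a1 was at most at 0.0238 FPKM and Cyp26c1 was listed at 0, so Cyp26b1 was the only Cyp26 gene above an FPKM of 1.

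Other nuclear receptors were mostly higher in Affected. Of 14 genes, 11 had a mean FPKM of at least 1, of which 9 were higher than Control and 10 higher than Unaffected, with medians of 0.19 and 0.25, and in Unaffected against Control 8 were lower, with a median of -0.14. The first 2 medians were 0.14 and 0.42 with the trend of the median length subtracted, and 0.07 and 0.30 with that of the longest transcript. Only Nr4a2, an orphan receptor that can pair with retinoid X receptors, was past 1.5-fold, at 14.2 FPKM for Control, 10.7 for Unaffected and 18.3 for Affected (0.77 in Affected against Unaffected, 0.65 and 0.75 with either length trend subtracted). All 13 receptor coregulators were above an FPKM of 1, and 12 were higher in Affected than in each other group, with medians of 0.27 against Control and 0.49 against Unaffected. Among those past 1.5-fold in Affected against Unaffected were the coactivator Ncoa2 at 0.59 and the acetyltransferases Crebbp at 0.64 and Ep300 at 0.69. The median longest transcript of the 13 coregulators was 8171 nt, beside 3413 nt over all loci. With the trend of the median length subtracted, the list's medians were 0.24 against Control and 0.49 against Unaffected. With that of the longest transcript they were 0.06 and 0.14. Ncoa2, Crebbp and Ep300 in Affected against Unaffected stood between 0.45 and 0.80 by the first measure and between 0.21 and 0.30 by the second.

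Of 19 known retinoic acid target genes, 9 had a mean FPKM of at least 1, and the Hox genes Hoxa4 and Hoxa5 were listed at 0 in all groups. In Affected against Unaffected 7 were higher and 2 lower, with a median of 0.20 (0.23 with the trend of the median length subtracted, 0.08 with that of the longest transcript). In Affected against Control 6 were higher and in Unaffected against Control 4 were, with medians of 0.11 and -0.04.

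**Figure D4:**
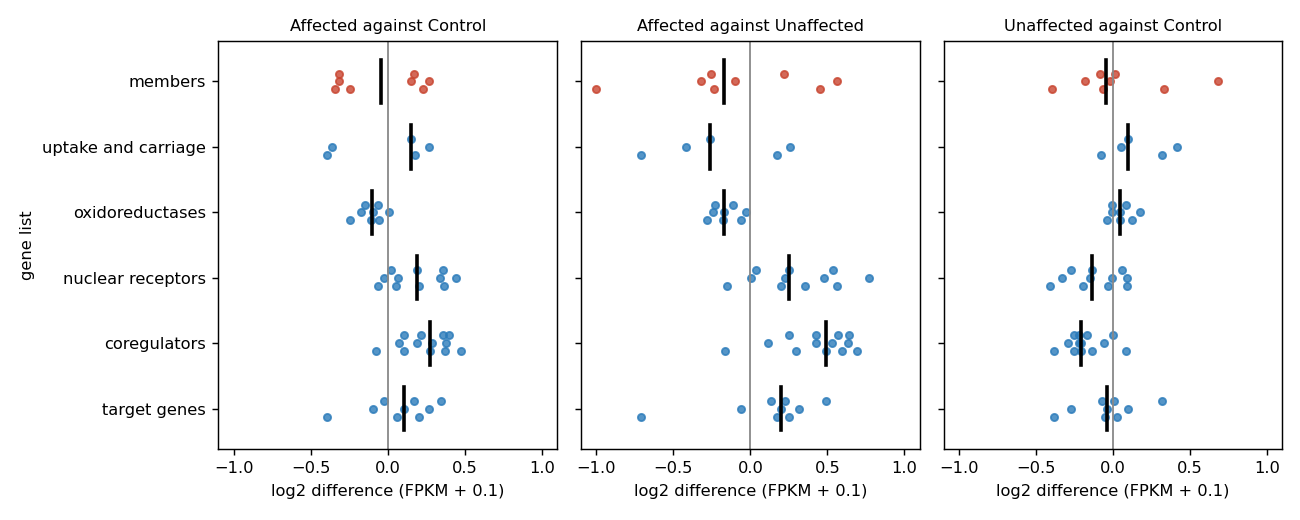
Differences in log2(FPKM + 0.1) of the members above the filter on level (red) and of 5 other gene lists of the pathway (blue) in the 3 comparisons, with 1 point per gene at a mean FPKM of at least 1 and a black bar at each list's median. Coregulators sit to the right in Affected against Unaffected with a median of 0.49, and the oxidoreductases lie within a narrow range, all below 0 in that comparison.

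Markers of cell types known to express the members were set beside them. In bulk tissue, fewer cells of a type and less RNA per cell cannot be told apart. The summed FPKM of 11 markers of meninges was 287 for Control, 243 for Unaffected and 187 for Affected, with Ptgds as the largest part, which stood at 167, 132 and 82.6 FPKM. In Affected against Control 8 of 11 markers were lower, with a median of -0.23, among them Dcn at 31.6 FPKM in Control and 22.1 in Affected, while Foxc1 was at 2.61 and 3.16 and Col1a1 at 13.7 and 14.6. Against Unaffected 7 of 11 were lower in Affected, with a median of -0.03 (-0.18 with the trend of the median length subtracted, -0.21 with that of the longest transcript). Without Ptgds the sum was 120 for Control, 112 for Unaffected and 105 for Affected. Aldh1a2 and Crabp2 were lowest in Affected as well, although Crabp2 stood at -0.05 against Control and 0.11 against Unaffected with the trend of the longest transcript subtracted. The part of the meninges in that result was not tested.

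Of 14 markers of striatum and lateral ganglionic eminence, all were above an FPKM of 1, and their sum was 179 for Control, 179 for Unaffected and 189 for Affected, so the sum did not follow Aldh1a3. In Unaffected against Control 6 of 14 were higher. Isl1, at 11.3, 14.6 and 11.0 FPKM, had the same high group as Aldh1a3, and so did Sp8, Rxrg and Tac1. No other marker of this list was highest in Unaffected. In Affected 10 of 14 were higher than in Unaffected, with a median of 0.16, and 9 of 14 higher than in Control, with a median of 0.15. With the trend of the median length subtracted these medians were 0.27 and 0.14, and with that of the longest transcript 0.04 and 0.02. Against the direction of most markers, Tac1 was the 1 marker past 1.5-fold, at 23.2 FPKM in Unaffected and 14.9 in Affected. Summed markers of blood were also highest in Unaffected, at 600 FPKM, beside 458 in Control and 374 in Affected, and those of choroid plexus stood at 993 for Control, 1318 for Unaffected and 1106 for Affected. Nearly all of the latter sum was Ttr. Without Ttr, the 4 markers with a mean FPKM of at least 1 summed to 20.8 for Control, 24.9 for Unaffected and 26.3 for Affected. That sum was highest in Affected. All 5 markers of choroid plexus were higher in Unaffected than in Control, and 4 of 5 were lower in Affected than in Unaffected, the exception being Clic6 at 4.48, 5.36 and 8.31 FPKM. Their median in Affected against Unaffected was -0.11. It was -0.01 with the trend of the median length subtracted and 0.17 with that of the longest transcript. The part of these cell types in the Aldh1a3 differences was not tested. Markers of Cajal-Retzius cells were higher in Affected in 4 of 5 cases, with medians of 0.49 against Control and 0.67 against Unaffected (0.59 and 0.37 for the latter with the trends of the median length and the longest transcript subtracted), whereas Calb2 stood at 34.9 FPKM in Control and 24.5 in Affected. Of 11 markers of endothelium and pericytes, 6 were higher in Affected than in Control, with a median of 0.26 (0.11 and 0.07 with those trends subtracted), and their sum ranged from 140 to 144 FPKM. Of 4 markers of thalamus, only Tcf7l2 was past 1.5-fold, at 4.18 FPKM for Control, 2.29 for Unaffected and 2.39 for Affected. In Affected against Control 3 of the 4 were lower, with a median of -0.06. The other, Lef1, stood at 2.47 FPKM in Control and 3.42 in Affected. All 4 were higher in Affected than in Unaffected, with a median of 0.11.

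**Figure D5:**
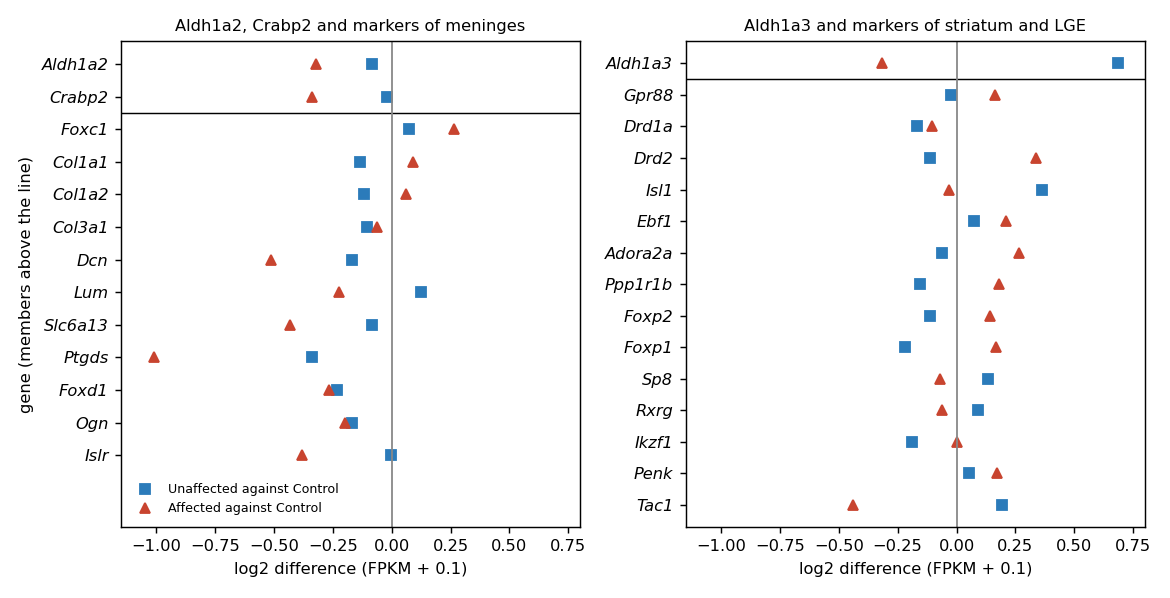
Differences in log2(FPKM + 0.1) from Control of Unaffected (blue squares) and Affected (red triangles), with members above the line and marker genes below it. Aldh1a2 and Crabp2 lie at -0.32 and -0.34 in Affected beside 8 of 11 lower markers of meninges, and Aldh1a3 lies at 0.68 in Unaffected, farther right than any of the 14 markers of striatum and lateral ganglionic eminence (LGE).

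The distance to Aldh1a3 was computed for 12439 single-gene loci with a mean FPKM of at least 1. The distance in its differences of Unaffected and Affected from Control was below 0.2 for 5 loci and below 0.1 for 0. The closest were Gm10421 (0.10) and S100a4 (0.13), both low, followed by the zinc finger gene Zic4 (0.19), 1700045I19Rik (0.19) and Tsacc (0.20). Zic4 stood at 5.78 FPKM for Control, 8.34 for Unaffected and 4.32 for Affected. Likeness over 3 group values is a description.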

How the data were processed

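RNA was measured in the fetal brain of 9 C57BL/6 mice (C57BL/6J in the methods), 3 per group, from TruSeq libraries that do not mark strand. The authors aligned reads to mm10. The submitters' processing notes name Bowtie2 2.2.4.0, Cufflinks and Cuffdiff, and the methods name STAR and also Bowtie with TopHat. The deposited FPKM values (fragments scaled to exon length and to mapped fragments) were made by the authors as 1 value per group and locus over 3 animals. Values of single animals were in 0 columns, so no new test and no replicate error could be computed. The deposited table also holds the authors' own comparisons, with log2 fold changes, test statistics, p-values and q-values, which were not used.

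Differences were computed as log2(FPKM + 0.1), which understates those of low genes. A locus was called at a fold of 1.5 or more with a mean FPKM of at least 1. The 9 genes and the pathway and marker lists were chosen with earlier results of these data known. Named genes were the 9 members, pathway list genes past 1.5-fold in any comparison, genes needed to say what was at or near 0, and the 5 loci most like the member with the widest range. Other genes named were chosen after their values were seen, and some single genes under these rules are left out of the text.

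Total reads per library were not in the table. From the lowest values of long loci, the deepest library of each group was estimated at 24300000 fragments in Control, 26500000 in Unaffected and 35200000 in Affected. Fragments per gene were taken from these depths and the median coding transcript, as if that library were the only one, and gave 95% Poisson intervals that cover counting error only, not the spread among animals. On simulated data for 12559 loci, with 200 loci of Affected against Control changed 2-fold, 100% of the changed and 0.138% of the unchanged loci were called. That simulation had no spread among animals, so it checks the arithmetic and not the calls on 3 animals. Transcript lengths came from GENCODE M21 and were found for 80.8% of the 15548 loci with a mean FPKM of at least 1. Promoters were RefSeq sequences of GRCm38.p6. Python 3.11.15, pandas 2.3.3, numpy 2.4.6 and scipy 1.17.1 were used. Alternatives were other pseudocounts, filters, fold limits, scalings, single-gene loci and removal of the trend with the median transcript length, or with the longest transcript, which was added after seeing the data.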

Additional observations from a re-analysis of the deposited data

How the results depend on the processing

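No paired analysis was possible because the table holds no values of single animals, and leaving out an animal was not run for the same reason. In Affected against Control, 1 member was past a ratio of 5 to 4, in place of 0 past 1.5-fold. In Affected against Unaffected, the count of 1 became 3 at 5 to 4 and 0 at a mean FPKM of at least 5. In Unaffected against Control, the count of 1 became 3 at 5 to 4 and 0 at 2-fold, with a pseudocount of 1 or at a mean FPKM of at least 5. These counts fell to 0 because Aldh1a3, with a mean FPKM of 2.13, left the filter or its fold lay under the limit. The members' median in Affected against Unaffected moved from -0.17 to 0.16 when the trend with the longest transcript was subtracted, an alternative chosen after seeing the data. Their median in Affected against Control, -0.05, ranged from -0.25 at a mean FPKM of at least 5 to 0.15 without Aldh1a3, also added after seeing the data, and so has no settled sign. In Unaffected against Control it ranged from -0.11 to -0.02. Other filters and pseudocounts cannot turn a member's sign. Under the 2 scalings and 2 length trends, 91 of 96 values kept it. The 5 that changed were Rarb in Unaffected against Control (-0.02 relative to Gapdh and Ywhaz, -0.03 and -0.01 with either length trend subtracted) and Crabp1 and Crabp2 in Affected against Unaffected (0.34 and 0.11 with the longest transcript). With the planned trend of the median length, Cyp26b1 moved to 0.00 in Affected against Control and 0.33 in Affected against Unaffected. Relative to Gapdh and Ywhaz, values moved by at most 0.10. Depth was estimated and limits the low members Aldh1a1 and Aldh1a3 most.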
